A study of Mus musculus with 4 samples.

Results

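The genes of MHC class I antigen presentation were examined in 4 RNA-seq libraries of mouse myeloid cells, 2 labelled wt and 2 labelled cko. The genes were chosen by name, and all 9 were found among the 24706 genes listed for each library. They comprise the classical heavy chain genes H2-K1 and H2-D1, the light chain gene B2m, the peptide transporter genes Tap1 and Tap2, the tapasin gene Tapbp, the immunoproteasome subunit genes Psmb8 and Psmb9, and the transcriptional regulator gene Nlrc5. Expression was deposited as FPKM, read numbers divided by the length of the gene and by the counted total of its library. The length used was 5476 bases for Tap1 and 3659 (inferred) for Psmb9, whose longest protein-coding transcripts have 2953 and 1352 bases. For B2m both lengths were 860 bases. Orders and ratios between genes therefore hold for FPKM and not for numbers of messages. Of the 9 genes, 8 had the mean of at least 1 FPKM that was required for testing, as did 10779 genes in all.

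The study describes the wt group as PD-1f/f mice and the cko group as PD-1f/f; LysM-Cre mice. Both groups therefore carry the floxed Pdcd1 allele, with LoxP sites on either side of an exon of the gene for PD-1, and cko mice carry in addition a Cre recombinase driven in granulocytes, monocytes and macrophages. The methods, in contrast, name wild-type and PD-1 knockout mice, and give RNA of fetal livers at postnatal day 2, whereas the results give CD11b+ cells sorted from the liver at postnatal day 3. The background strain, the H2 haplotype and the number of animals behind a library are not given in the sources used here. Nothing states that the libraries of a group came from separate animals, so that p-values measure only the spread between these libraries, which may be technical.

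The libraries held between 17691505 and 22212407 counted reads. Pdcd1 stood at 28.5 and 34.7 FPKM in wt and at 17.1 and 21.4 FPKM in cko, in the direction of the labels, over the whole gene and not the floxed exon alone, and its difference did not pass the test (adjusted p = 0.218, limma with Benjamini-Hochberg adjustment). Lyz2, the gene into which LysM-Cre is inserted, stood at 31306 and 32147 FPKM in wt and at 10422 and 8127 FPKM in cko. Granulocyte genes stood at high levels in every library, with S100a8 at 12062 FPKM or more and S100a9 at 26142 FPKM or more. The summed level of 7 dendritic cell markers was 2.02 to 3.07 FPKM.

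Class I molecules carry peptides of cytosolic and nuclear proteins to the cell surface, where CD8 T cells and NK cell receptors read them. The proteasome, whose catalytic subunits are exchanged for immunoproteasome subunits under interferon, cuts the proteins. TAP pumps the peptides into the endoplasmic reticulum, tapasin with calreticulin and ERp57 holds an empty heavy chain and β2-microglobulin at TAP until a peptide fits, and NLRC5 switches on most of these genes together. Nearly all nucleated cells express the pathway, and type I and type II interferons raise it in myeloid cells.

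All members except B2m and Nlrc5 lie on chromosome 17 (GRCm38), within 1351601 bases. Psmb9, Tap1, Psmb8 and Tap2 are neighbours there, within 34334 bases from 34181988 to 34216321. Psmb9 and Tap1 are transcribed away from each other from a shared stretch of DNA. H2-K1 lies on the minus strand from 33996017 to 34000333, H2-D1 on the plus strand from 35262730 to 35267499 and Tapbp on the plus strand from 33915899 to 33929288. B2m lies on chromosome 2 from 122147686 to 122153083, and Nlrc5 on chromosome 8 from 94434356 to 94527272, both on the plus strand.

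RefSeq promoter sequences (GRCm38.p6) were at hand for 7 of the 9 members, and not for Tap2 and Nlrc5. For a gene with more than 1 RefSeq start site, the one farthest upstream was used. The sequences are shown because the heavy chain and light chain genes are known to share promoter elements, and because Tap1 and Psmb9 start on either side of a single stretch of DNA. Each runs 5′ to 3′ on the strand of the gene, of Tap1 in the last, and capitals mark the letters of 4 motifs searched on both strands, namely the interferon regulatory factor core AANNGAAA, the NF-κB type site (GGG, any 2 bases, TT, any base, CC), the cyclic AMP response element core TGACG and the NF-Y box CCAAT. A motif on the opposite strand appears as its reverse complement, such as ATTGG, and no marked motif overlaps another. The first 3 sequences are the 200 bases before the start site, at chr17:34000348-34000547 on the minus strand for H2-K1, at chr17:35262894-35263093 for H2-D1 and at chr2:122147487-122147686 for B2m, and the last holds the 225 bases between the start sites of Psmb9 and Tap1 at chr17:34187331-34187555.
H2-K1: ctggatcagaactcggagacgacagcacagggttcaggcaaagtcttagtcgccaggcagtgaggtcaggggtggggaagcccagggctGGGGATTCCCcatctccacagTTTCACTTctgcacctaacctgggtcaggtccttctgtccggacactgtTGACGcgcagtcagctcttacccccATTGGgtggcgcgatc
H2-D1: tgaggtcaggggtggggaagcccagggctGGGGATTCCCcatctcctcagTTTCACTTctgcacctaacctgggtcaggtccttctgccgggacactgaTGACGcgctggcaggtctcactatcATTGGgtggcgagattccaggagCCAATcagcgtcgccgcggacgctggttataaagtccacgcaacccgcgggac
B2m: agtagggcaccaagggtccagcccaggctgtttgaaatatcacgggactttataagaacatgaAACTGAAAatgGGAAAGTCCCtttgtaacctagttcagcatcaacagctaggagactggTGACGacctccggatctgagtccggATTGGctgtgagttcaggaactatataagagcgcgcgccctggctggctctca
Tap1 and Psmb9: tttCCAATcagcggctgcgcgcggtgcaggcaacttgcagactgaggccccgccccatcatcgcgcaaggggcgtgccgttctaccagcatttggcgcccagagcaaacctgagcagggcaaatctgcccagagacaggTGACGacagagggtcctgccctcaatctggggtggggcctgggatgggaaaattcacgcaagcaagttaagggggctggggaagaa

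The promoters of H2-K1, H2-D1 and B2m each held all 4 motifs. In H2-K1 and H2-D1 the NF-κB type site came before the interferon regulatory factor core, in B2m after it, and in each TGACG and then CCAAT lay nearer to the start site. Among 32851 promoters of 300 bases, AANNGAAA was found in 23.9%, the NF-κB type site in 4.8%, TGACG in 20.8% and CCAAT in 37.4%. The aligned H2-K1 and H2-D1 promoters were identical at 90.4% of 228 columns. The stretch between Psmb9 and Tap1 held TGACG and CCAAT, the Tapbp promoter held CCAAT alone, and the Psmb8 promoter held none of the 4. A match describes these letters only, and no match says nothing about the factors.

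B2m, whose product is the light chain of every class I molecule, had the highest level of the set and ranked 34 of the 10779 genes tested. It was followed by H2-D1, Tapbp and H2-K1, whose ranges over the libraries did not overlap with one another. Tap2, Tap1 and Psmb9 came next, and the range of Tap1 overlapped with those of both others and of H2-K1. Psmb8 and Nlrc5 stood far lower, both with means under 2 FPKM in each group. The plot of FPKM by library shows this order and shows that the second cko library lay to the right of the others in most rows.

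**Figure D1:**
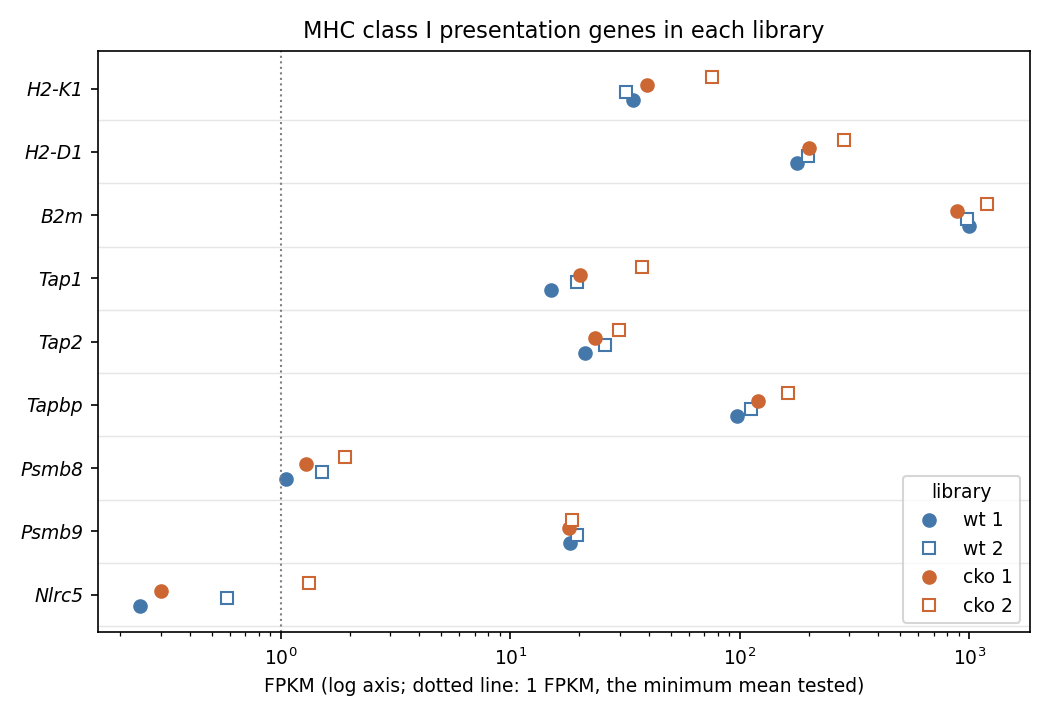
FPKM of each of the 9 genes on a log axis, with 1 point per library (blue wt, orange cko, filled circles replicate 1, open squares replicate 2). The second cko library has the highest value of all members but Psmb9, and B2m exceeds H2-K1 in each library.

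H2-K1 encodes the heavy chain of H2-K. Its level was 34.4 and 32.0 FPKM in wt and 39.3 and 75.4 FPKM in cko, from 1570 to 3478 reads. Both cko libraries lay above both wt libraries, and the cko libraries lay much farther apart (SD 25.5, n = 2) than the wt libraries did (SD 1.69, n = 2). The log2 difference of FPKM + 1, cko minus wt, was 0.70 ± 0.31 (SE), which did not pass the test (adjusted p = 0.334, limma with Benjamini-Hochberg adjustment over all tested genes). It was 0.24 without the second cko library and 1.16 without the first.

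H2-D1 encodes the heavy chain of H2-D. Its level was 177 and 199 FPKM in wt and 200 and 284 FPKM in cko. The groups did not overlap, but the higher wt library and the lower cko library were nearly equal, at 199.04 and 199.73 FPKM. The log2 difference was 0.34 ± 0.20 (SE; limma adjusted p = 0.443), and 0.09 without the second cko library.

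B2m stood at 998 and 981 FPKM in wt and at 880 and 1198 FPKM in cko. The cko libraries were the lowest and the highest of the 4, so that the groups overlapped. The log2 difference was 0.05 ± 0.19 (SE; limma adjusted p = 0.912), and it was below 0 under median-of-ratios scaling (-0.066), quantile normalization (-0.056) and without the second cko library (-0.17).

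H2-K1 and H2-D1 are near relatives of each other and of other class I genes, and reads of shared stretches could be divided among them. In the GENCODE M21 transcripts, 8.8% of the 50-base stretches of H2-K1 and 14.3% of those of H2-D1 also occurred in transcripts of other genes, led by H2-D1 and H2-Q1 respectively, and of the 100-base stretches 0.0% and 4.6% did. How such reads were assigned is not given in the sources used here, so that the values of both genes are uncertain. B2m had no such stretch.

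Tap1 and Tap2 encode the subunits of the peptide transporter. Tap1 stood at 15.1 and 19.5 FPKM in wt and at 20.2 and 37.5 FPKM in cko, without overlap, although the second wt and the first cko library were close. Its log2 difference was 0.66 ± 0.31 (SE; limma adjusted p = 0.360), with 0.22 without the second cko library and 1.09 without the first. Tap2 stood at 21.1 and 25.8 FPKM in wt and at 23.4 and 29.8 FPKM in cko. Its groups overlapped, with a log2 difference of 0.17 ± 0.19 (SE; limma adjusted p = 0.676), and it was 0.0029 without the second cko library. Of the exon bases of Tap2, 18.5% are shared with genes on the opposite strand, Gm15821 and Gm20496.

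Tapbp encodes tapasin, which tethers the heavy chain to the transporter. It stood at 97.5 and 111 FPKM in wt and at 120 and 162 FPKM in cko, so that both cko libraries were above both wt libraries. The log2 difference was 0.42 ± 0.19 (SE; limma adjusted p = 0.350), and 0.20 without the second cko library. Of the exon bases of Tapbp, 4.1% are shared with Zbtb22 on the same strand (5.39 and 9.78 FPKM in wt, 11.5 and 13.3 FPKM in cko), and 24.9% with Gm19412 on the opposite strand. Whether counting used strand is not given in the sources used here, so that reads of opposite genes cannot be told apart.

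Psmb8 and Psmb9 encode immunoproteasome subunits, which replace the constitutive subunits of Psmb5 and Psmb6. Psmb9 varied least of all members, at 18.2 and 19.5 FPKM in wt and 18.0 and 18.6 FPKM in cko. Its groups overlapped and its log2 difference was -0.04 ± 0.15 (SE; limma adjusted p = 0.916), turning positive where erythroid and hepatocyte genes were removed (0.16) and without the second wt library (0.0082). Psmb8 was low, at 1.05 and 1.51 FPKM in wt and 1.29 and 1.90 FPKM in cko. Each Psmb8 value rests on at least 32 to 46 reads, and its groups overlapped (log2 difference 0.18 ± 0.27 SE, limma adjusted p = 0.761). Leaving out single libraries moved this difference between 0.0094 (without the second cko library) and 0.35 (without the first), with 0.035 without the first wt library and 0.33 without the second. Of the exon bases of Psmb8, 14.7% are shared with Gm20496 on the opposite strand.

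Nlrc5, the regulator of class I promoters, was below the level required for testing, at 0.244 and 0.582 FPKM in wt and 0.302 and 1.32 FPKM in cko. These values correspond to 46, 93, 48 and 199 reads. The exact 95% binomial interval of the second cko library, 1.15 to 1.52 FPKM, lay above those of the other libraries (counting error only). The groups overlapped, since the second wt library exceeded the first cko library. Without a minimum level the log2 difference was 0.31 (limma adjusted p = 0.742), a scale that understates the change of genes this low, and with voom on recovered reads it was 0.76 (limma adjusted p = 0.661).

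None of the 8 tested members had an unadjusted p under 0.05 in limma. Of all tested genes 16.4% had such a p in either direction, and 11.4% were higher in cko at that level. None passed |log2FC| of at least 1 with an adjusted p under 0.05, nor did any gene (0% of 10779, smallest adjusted p 0.129, with 1768 genes at an unadjusted p under 0.05). None passed |log2FC| above 1 with an unadjusted p under 0.01 either, as 2.29% of all tested genes did. In 4 members both cko libraries lay above both wt libraries, where 33.6% of all tested genes showed this, and in 0 members both lay below (18% of all tested genes). The difference was positive in 7 of 8 members and in 60.4% of all tested genes, and its median was 0.26 for the members and 0.09 for all tested genes. With 2 libraries against 2, an exact two-sided permutation test cannot give a p under 0.333, so that none was run for single genes.

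The second cko library was the highest of the 4 in 7 of the 8 tested members and in 33.8% of all tested genes. Relative to the wt mean, the median member stood 0.47 higher on the log2 scale in the second cko library and 0.05 higher in the first, and the wt libraries stood 0.09 to either side. Without the second cko library the median difference was 0.05, below that of all tested genes (0.09), and without the first it was 0.47. Without the first cko library H2-K1, H2-D1, Tap1 and Tapbp had an unadjusted p under 0.05 in limma, with adjusted p-values of 0.112 for H2-K1 and 0.166 for Tap1, in a fit where 16.1% of all tested genes had such a p in either direction. The plot of differences with and without each cko library shows Psmb9 near 0 in all fits, and H2-K1 and Tap1 moving farthest.

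**Figure D2:**
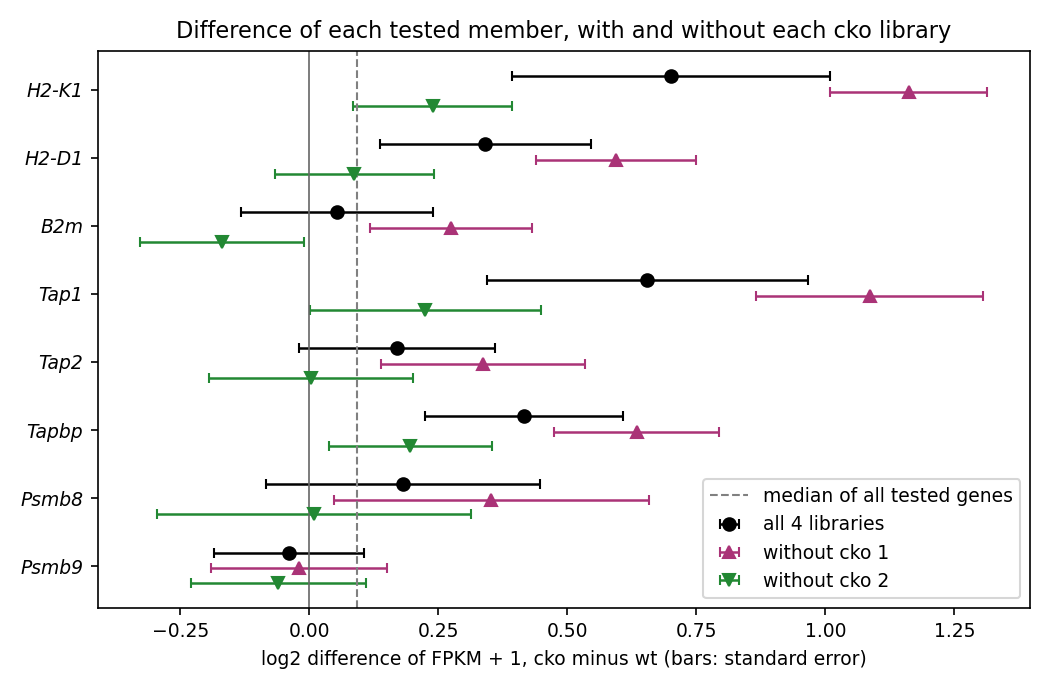
Log2 difference of FPKM + 1, cko minus wt, of the 8 tested members with standard errors, in all 4 libraries (black), without the first cko library (purple) and without the second (green). The dashed line is the median of all tested genes, 0.09, and H2-K1 spans from 0.24 to 1.16 between the fits.

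Ratios between members within a library do not depend on the scaling of the library, and are given as descriptions. The ratio of H2-K1 to B2m was 0.0344 and 0.0326 in wt and 0.0447 and 0.0629 in cko. That of H2-D1 to B2m was 0.178 and 0.203 in wt and 0.227 and 0.237 in cko. The heavy chain messages thus stood higher against the light chain message in both cko libraries. The sum of both was 0.212 and 0.235 of B2m in wt and 0.272 and 0.300 in cko. In the first cko library the ratios also reflect a lower B2m level, 880 FPKM against 998 and 981 FPKM in wt. H2-D1 stood there at 199.73 FPKM, against 177 and 199.04 FPKM in wt. H2-K1 stood there at 39.3 FPKM, against 34.4 and 32.0 FPKM in wt. How often other genes had higher ratios to B2m in both cko libraries was not tested. The ratio of H2-K1 to H2-D1 was 0.194 and 0.161 in wt and 0.197 and 0.265 in cko, with the first libraries of both groups almost equal.

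The neighbours Tap1 and Psmb9, whose start sites lie on either side of the last sequence above, had a Tap1 to Psmb9 ratio of 0.828 and 0.999 in wt and of 1.12 and 2.02 in cko. Tap1 to Tap2 was 0.713 and 0.754 in wt and 0.862 and 1.26 in cko. Both ratios were higher in both cko libraries, and the second cko library alone had a higher FPKM of Tap1 than of Tap2. This order depends on the lengths used, 5476 bases for Tap1 and 3781 bases for Tap2. Their longest protein-coding transcripts have 2953 and 3442 bases. How often ratios of other genes were higher in both cko libraries was not tested. Tap1 and Psmb9 share 212 exon bases on opposite strands, which is 3.9% of those of Tap1 and 5.8% of those of Psmb9.

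Against the constitutive subunits, Psmb9 stood at 0.931 and 0.925 of Psmb6 in wt and at 1.15 and 0.961 in cko. Psmb8 stood at 0.0396 and 0.0576 of Psmb5 in wt and at 0.0531 and 0.0676 in cko. Psmb10, the remaining catalytic immunoproteasome subunit gene, stood at 0.701 and 0.706 of Psmb7 in wt and at 0.641 and 1.21 in cko. In FPKM, Psmb9 and Psmb10 were thus of the order of their constitutive counterparts in all libraries, and Psmb8 was far lower. The groups overlapped for Psmb8 and Psmb10. These ratios depend on the lengths used. Psmb9 was divided by 3659 bases, and its longest protein-coding transcript has 1352. Psmb8 was divided by an inferred 1368 bases, and its annotated exons cover 3381.

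**Figure D3:**
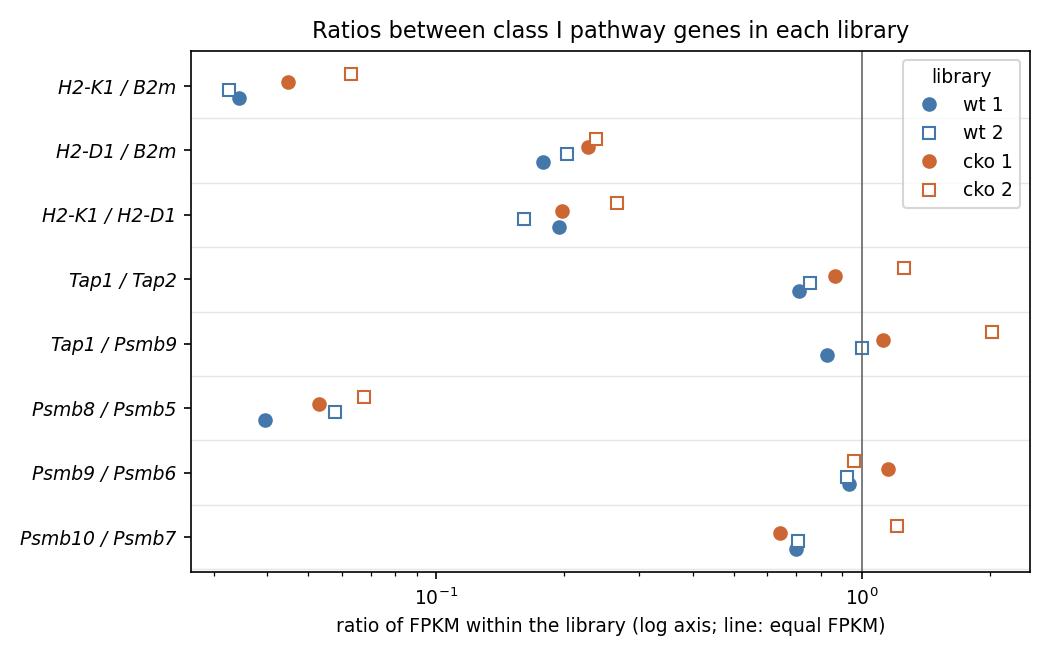
Ratio of FPKM between pairs of class I pathway genes within each library on a log axis (symbols as in the plot of FPKM by library, line at equal FPKM). The Tap1 to Psmb9 ratio runs from 0.828 in a wt library to 2.02 in a cko library, and the Psmb9 to Psmb6 ratio stays between 0.925 and 1.15.

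The other genes of the pathway were read from lists and are described by counts and medians. Of all tested genes, 60.4% had a positive difference, and their median was 0.09. Of 5 genes of the loading complex and its partners in the endoplasmic reticulum, 4 had positive differences, with a list median of 0.42. Calr, which encodes calreticulin, stood at 39.8 and 37.3 FPKM in wt and 57.3 and 71.7 FPKM in cko, with a log2 difference of 0.72 ± 0.17 (SE; limma adjusted p = 0.212). Both cko libraries were above both wt libraries here, as they were for Canx (calnexin) and Pdia3 (ERp57). Canx stood at 70.0 and 74.7 FPKM in wt and at 94.2 and 108 FPKM in cko, and Pdia3 at 218 and 207 FPKM in wt and at 270 and 300 FPKM in cko. These 3 genes had an unadjusted p under 0.05, where 11.4% of all tested genes were higher in cko at that level and 33.6% did not overlap in this direction, and none passed the adjusted threshold. The median of these partners was 0.34 without the second cko library and 0.49 without the first. Erap1, which trims peptides, and Tapbpl, a tapasin relative, had differences of -0.17 and 0.08.

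The other immunoproteasome and activator subunits, Psmb10, Psme1, Psme2 and Psme3, had positive differences in 4 of 4 genes, with a median of 0.21, which was 0.036 without the second cko library and 0.42 without the first. Psme3, which encodes an activator of the proteasome in the nucleus, was the only one with an unadjusted p under 0.05, at 6.27 and 5.95 FPKM in wt and 10.24 and 8.36 FPKM in cko (limma adjusted p = 0.254). The constitutive subunits Psmb5, Psmb6 and Psmb7 had negative differences in 3 of 3 genes, with a median of -0.20 (-0.33 without the second cko library and -0.067 without the first), and none had an unadjusted p under 0.05.

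Of 38 class Ib and related heavy chain genes, 25 were listed and 10 were tested. Their differences were positive in 6 and negative in 4, with a median of 0.15, which was 0.00072 without the second cko library. H2-T23, which encodes Qa-1, was the highest of the H2 genes among them, at 43.3 and 47.4 FPKM in wt and 34.9 and 44.6 FPKM in cko, and its groups overlapped. H2-T24 was lower in both cko libraries, at 11.2 and 10.42 FPKM in wt and 7.48 and 7.46 FPKM in cko, with a log2 difference of -0.48 ± 0.16 (SE; limma adjusted p = 0.251). H2-K2, a pseudogene near H2-K1, stood at 2.66 and 2.03 FPKM in wt and at 3.05 and 8.30 FPKM in cko, in the same order of libraries as H2-K1.

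Of 17 genes for class I receptors and their relatives, not all of which bind class I molecules, 7 were listed and 5 were tested. Differences were positive in 4, with a median of 0.47, which was 0.23 without the second cko library and 0.71 without the first. Lilrb4a, an inhibitory receptor of the same family as Pirb, had the largest positive difference, at 80.6 and 59.1 FPKM in wt and 96.5 and 166 FPKM in cko (log2 difference 0.87 ± 0.30 SE, limma adjusted p = 0.261). Pirb, an inhibitory receptor of myeloid cells, stood at 77.9 and 67.0 FPKM in wt and at 106 and 104 FPKM in cko (log2 difference 0.53 ± 0.14 SE, limma adjusted p = 0.218). Klrd1, which encodes the CD94 chain of NK cell receptors, was lower in both cko libraries, at 4.89 and 2.82 FPKM in wt and 0.875 and 1.59 FPKM in cko (log2 difference -1.11 ± 0.31 SE, limma adjusted p = 0.223). The summed level of 9 T and NK cell markers, 8 of them listed, moved with it, from 47.4 to 69.0 FPKM in wt and from 32.0 to 37.5 FPKM in cko, and its part in the Klrd1 result was not tested.

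Among the factors that bind class I promoters, 11 of 14 were tested, with 7 positive and 4 negative differences and a median of 0.28. Irf1, an interferon-induced activator of class I promoters, stood at 25.9 and 21.2 FPKM in wt and at 47.4 and 102 FPKM in cko. Its groups did not overlap and its log2 difference was 1.53 ± 0.36 (SE; limma adjusted p = 0.214). It was the only one of the 11 past |log2FC| above 1 with an unadjusted p under 0.01 in limma, where 2.29% of all tested genes passed. Nfkb1 and Rela, which encode NF-κB subunits, had differences of 0.70 and 0.48. The negative differences were those of Irf2 (-0.23), Creb1 (-0.21), Rfxank (-0.19) and Nfyb (-0.02). Creb1 was lower in both cko libraries, at 4.96 and 4.67 FPKM in wt and 3.74 and 4.29 FPKM in cko. Irf2, Rfxank and Nfyb overlapped between the groups.

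Of 11 tested genes of interferon receptors and their signalling, 10 had positive differences (60.4% of all tested genes). The median was 0.40, which was 0.28 without the second cko library and 0.64 without the first. In 8 genes both cko libraries lay above both wt libraries (33.6% of all tested genes). In limma 4 were higher at an unadjusted p under 0.05 (11.4% of all tested genes). The negative difference was that of Usp18 (-0.57), which overlapped between the groups. Ifngr1, a chain of the interferon-γ receptor, stood at 121 and 112 FPKM in wt and at 158 and 204 FPKM in cko, and Ifnar2, a chain of the type I receptor, at 22.2 and 20.1 FPKM in wt and at 33.0 and 35.3 FPKM in cko. Socs1, an inducible inhibitor of this signalling, stood at 8.19 and 8.14 FPKM in wt and at 11.9 and 26.8 FPKM in cko. None passed the adjusted threshold in limma.

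The 32 tested interferon response genes were evenly divided, with 16 positive and 16 negative differences and a median of 0.05. The median was -0.23 without the second cko library and 0.53 without the first. Cxcl10, a chemokine gene induced by interferon, stood at 5.98 and 2.03 FPKM in wt and at 16.3 and 73.8 FPKM in cko, with a log2 difference of 2.97 ± 0.74 (SE; limma adjusted p = 0.214). It was the only gene of the 32 past |log2FC| above 1 with an unadjusted p under 0.01 in limma, where 2.29% of all tested genes passed. Its groups did not overlap. Gbp2, a guanylate-binding protein gene strongly induced by interferon-γ, stood at 6.75 and 6.42 FPKM in wt and at 13.4 and 79.0 FPKM in cko. Rsad2 and Ifit2, which are typical type I interferon targets, were lower in both cko libraries, with differences of -0.82 and -0.47. Rsad2 stood at 44.4 and 23.65 FPKM in wt and at 13.6 and 23.63 FPKM in cko, so that the second libraries were nearly equal. Ifit2 stood at 9.74 and 6.20 FPKM in wt and at 4.96 and 5.77 FPKM in cko. Oas2, another interferon response gene, was higher in both cko libraries, at 18.9 and 14.8 FPKM in wt and at 22.6 and 38.8 FPKM in cko. Many genes of the list overlapped between the groups, among them Isg15, Ifit1, Ifit3, Irf7, Mx1, Gbp3, Gbp7, Igtp and Irgm1. Of the 32 genes, both cko libraries lay above both wt libraries in 6 (33.6% of all tested genes) and below in 5 (18%). None of these genes passed the adjusted threshold. The 9 tested MHC class II genes had 5 positive and 4 negative differences, with a median of 0.10, which was -0.044 without the second cko library and 0.013 without the first.

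**Figure D4:**
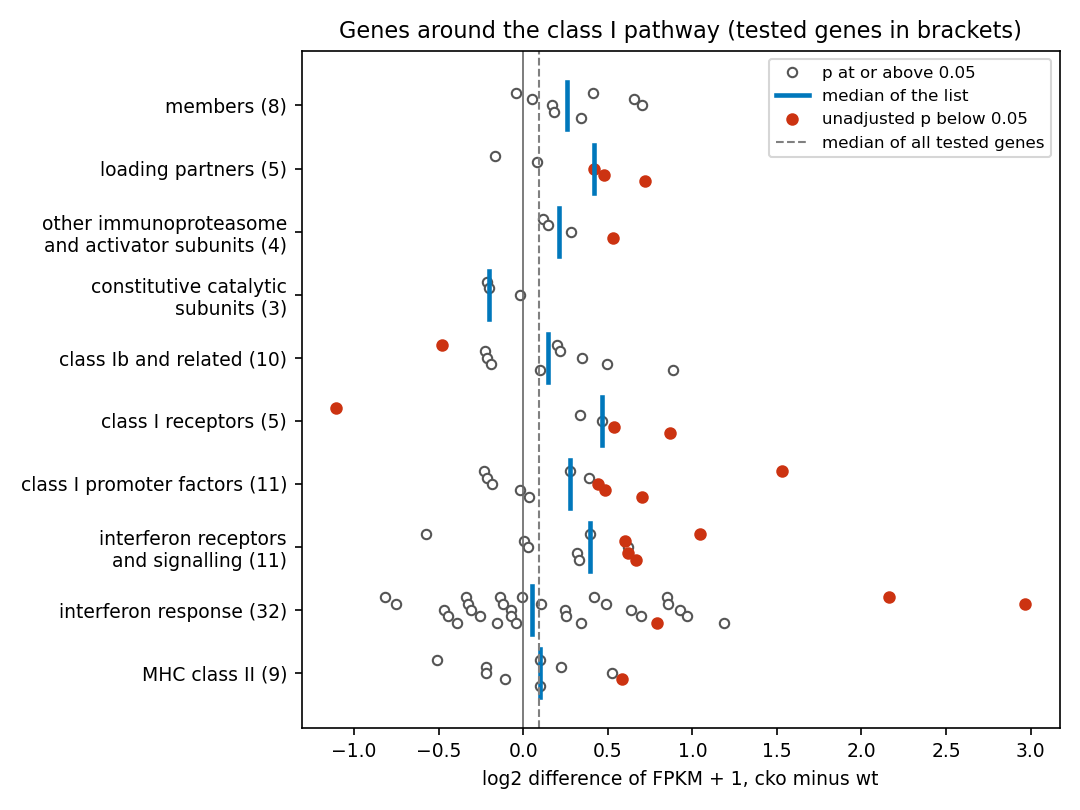
Log2 difference of FPKM + 1, cko minus wt, of each tested gene in the members and in 9 lists around the class I pathway. Filled points had an unadjusted p under 0.05, and blue bars are list medians over all 4 libraries. These run from -0.20 for the constitutive catalytic subunits to 0.47 for the class I receptors and their relatives. The dashed line is the median of all tested genes.

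Markers of cell types also differed between the libraries. The median difference of 6 monocyte markers was 0.46, with 0.02 without the second cko library and 0.94 without the first, and their summed level was 483 to 507 FPKM in wt and 495 to 626 FPKM in cko. Of these, Csf1r, the macrophage colony-stimulating factor receptor gene, stood at 40.9 and 33.0 FPKM in wt and at 45.6 and 113 FPKM in cko, whereas Ly6c2 was slightly lower in both cko libraries (343 and 360 FPKM in wt, 333 and 315 FPKM in cko) and Ccr2, Ms4a6c and Fn1 overlapped between the groups. The 9 macrophage markers had a median of 0.08, with -0.36 without the second cko library and 0.43 without the first, and summed levels of 263 to 384 FPKM in wt and 264 to 446 FPKM in cko. The 10 neutrophil markers had 4 positive and 6 negative differences, with a median of -0.26 (-0.047 without the second cko library and -0.46 without the first) and a summed level of 134623 to 159096 FPKM in wt and 90341 to 108923 FPKM in cko. Prtn3, a primary granule protease gene, was higher in both cko libraries (267 and 250 FPKM in wt, 538 and 450 FPKM in cko), whereas Camp, a secondary granule gene, was lower in both (19301 and 17673 FPKM in wt, 9260 and 7948 FPKM in cko). The summed level of 9 erythroid markers was 2340 to 3719 FPKM in wt and 1425 to 1521 FPKM in cko, and that of 6 B cell markers 52.6 to 66.9 FPKM in wt and 33.6 to 43.2 FPKM in cko. In bulk libraries fewer cells of a type and less RNA per cell cannot be told apart, and the part of these differences in the class I results was not tested.

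The tested genes whose profile over the 4 libraries was most like the mean profile of the members, by Euclidean distance of centred log2(FPKM + 1), were 8430429K09Rik, Nop16, Bysl, Bcl10 and Bst1, at distances of 0.029 to 0.047. Bcl10, for example, stood at 27.4 and 30.02 FPKM in wt and at 29.1 and 42.8 FPKM in cko. Nothing on shared function or control was read from these profiles.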

How the data were processed

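RNA was extracted with Trizol and sequenced on an Illumina instrument. By the submitters' processing notes, Bowtie2 2.2.3, TopHat2 2.0.12, HTSeq 0.6.0 and the mm9 build were used. Gene positions in the files are nevertheless those of GRCm38 (92.62% identical to GENCODE M21), and the strand setting is not given in the sources used here. The authors deposited FPKM values per gene and library, without scaling between libraries.

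Since the FPKM of a single-exon gene was a whole number of reads in 99.94% to 99.97% of values (tolerance 0.02 reads), counted totals of 17691505 to 22212407 reads per library were recovered, and reads for 97.86% of genes. For H2-K1, Tapbp, Psmb8 and Psmb9 the gene length was inferred from these steps, and Psmb8 reads are the fewest possible. Intervals are exact 95% binomial intervals of the reads within the counted total and cover counting error only.

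Groups were compared with limma 3.58.1 (lmFit, eBayes with trend) in R 4.3.3 on log2(FPKM + 1), without covariates and with Benjamini-Hochberg adjustment over the 10779 genes averaging 1 FPKM or more. The scale understates differences of low genes. The script was tested on simulated data. Members and lists were chosen with earlier results of these data known. Named were all members, up to 4 higher and 4 lower tested genes per list by size of difference, and the 5 nearest profiles. Pdcd1 and Lyz2 were named as checks, while Zbtb22, Cd3e, Ccr2, Oas2 and H2-Ea-ps were singled out after their values were seen. Markers covered neutrophils, monocytes, macrophages, dendritic, T and NK, B, erythroid, hepatic, megakaryocyte, endothelial and stromal cells. Alternatives were pseudocounts of 0.1 and 0.01, no minimum level or 5 FPKM, 3 scalings (median-of-ratios, quantile, erythroid and hepatocyte genes removed), eBayes without trend, a replicate block, voom on reads (10 or more on average) and leaving out single libraries. Tables and figures were made with Python 3.11.15 and matplotlib 3.10.9.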

Additional observations from a re-analysis of the deposited data

How the results depend on the processing

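No member passed the adjusted threshold under any of the 15 alternatives, and the smallest adjusted p of a member was 0.112 (H2-K1 without the first cko library). The count of members with an unadjusted p under 0.05 was 0 in the fit of all libraries and under pseudocounts, minimum levels, median-of-ratios and quantile scaling and no trend. It was 3 (H2-K1, Tap1 and Tapbp) where erythroid and hepatocyte genes were removed, a scaling that moved the median of all genes from 0.09 to 0.27 and gave 23.7% of all tested genes such a p in either direction. It was 3 (the same genes) with voom on recovered reads, where 15.1% of genes had such a p. Leaving out 1 library gave 0 to 4, and then the median of the members ran from 0.05 to 0.47, B2m from -0.17 to 0.28 and Psmb9 from -0.087 to 0.0082. B2m was reversed under median-of-ratios scaling (-0.066), quantile normalization (-0.056) and without the second cko library (-0.17), and Psmb9 where erythroid and hepatocyte genes were removed (0.16) and without the second wt library (0.0082). The cause was not tested.

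Over all genes, the number past |log2FC| above 1 with an unadjusted p under 0.01 was 247, 126 among the fewer genes averaging 5 FPKM or more, and 131 to 462 with 1 library left out. The number past |log2FC| of at least 1 with an adjusted p under 0.05 was 0, except 2 with voom and 1 with the crossed block, no member among them, and 0 with any 1 library left out.

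Replicates of the same number did not deviate together (correlation -0.16 between the deviations of the pairs). With 1 difference per group, this cannot show whether libraries of the same number belong together, which is not given in the sources used here. With the replicate block 1 member (Tap1) had an unadjusted p under 0.05, as did 11.6% of all tested genes, and 258 genes passed the threshold on the unadjusted p. The crossed pairing, chosen after seeing the data, gave 1 member and 363 genes, with 20.9% of all tested genes at an unadjusted p under 0.05. Depth limits Psmb8 and Nlrc5, at 32 to 46 and 46 to 199 reads per library.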

Other observations

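Of 9 hepatocyte markers 7 were tested, with a median difference of -0.44 (-0.65 without the second cko library and -0.25 without the first) and a summed level of 85.0 to 143 FPKM in wt and 59.7 to 71.8 FPKM in cko. The 4 megakaryocyte markers summed to 9.68 to 24.4 FPKM in wt and 9.65 to 17.3 FPKM in cko (median of 2 tested genes -0.16, with -0.34 without the second cko library and 0.026 without the first), and the 8 endothelial and stromal markers to 31.9 to 36.9 FPKM in wt and 30.2 to 34.9 FPKM in cko (median -0.20). Among the latter, Stab2, a scavenger receptor gene of sinusoidal endothelium, stood at 0.319 and 0.315 FPKM in wt and at 3.61 and 4.76 FPKM in cko (log2 difference 1.97, limma adjusted p = 0.183). The other endothelial markers did not follow it. Lyve1, at 18.6 and 13.9 FPKM in wt and 13.6 and 19.7 FPKM in cko, overlapped between the groups, as did Pecam1 and Kdr. Cdh5 was lower in both cko libraries (log2 difference -0.53). Dcn, a matrix proteoglycan gene of stromal cells, stood at 4.41 and 3.72 FPKM in wt and at 1.499 and 0.765 FPKM in cko (log2 difference -1.27, limma adjusted p = 0.1996). Cd3e, a defining T cell gene, was listed at 0 in 3 of the 4 libraries. Cd3d of the same marker list, in contrast, stood at 6.50 and 7.55 FPKM in wt and at 4.62 and 3.15 FPKM in cko.

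H2-Ea-ps, the reference name of the class II Ea gene, stood at 10.24 and 10.61 FPKM in wt and at 7.70 and 12.4 FPKM in cko, and it was singled out after its values were seen. The Ea gene is known to be silent in the H2b haplotype of the C57BL/6 reference strain. The haplotype of these mice is not given in the sources used here, and how reads of other alleles of H2-K1 and H2-D1 map to the reference was not tested.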
